A study of Homo sapiens with 18 samples.

Results

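GPX3 and GPX2 encode glutathione peroxidases, enzymes that reduce peroxides with glutathione as the electron donor. Both genes were taken from the deposited count table by Ensembl ID, ENSG00000211445 for GPX3 and ENSG00000176153 for GPX2, and these are 2 of its 58676 IDs. The selection names them by ID and sets no limit on any measured value, although earlier results of these data were known when it was made. GPX3 had between 807 and 15414 counts per library. GPX2 had between 0 and 7 counts per library, so 1 of the 2 genes passed the filter on low counts and was tested together with all other IDs.

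Glutathione peroxidases of this kind are selenoproteins, with a selenocysteine in the active site that is encoded by a UGA codon. A stem-loop in the 3′ untranslated region, the SECIS element, directs this reading of UGA, and the SECIS-binding protein SBP2 takes part in inserting selenocysteine there. GPX3 is the secreted enzyme of blood plasma, made mainly in the kidney, and GPX2 is the enzyme best known from the epithelium of the gut.

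The libraries came from HEK293T cells, a human embryonic kidney line, although the growth protocol of the labels names the parent line without the T. Cells were transiently transfected with Flag-SBP2 and given 100 nM sodium selenite 4 h later (SBP2 with selenite), with Flag-SBP2 alone (SBP2), or with the Flag plasmid (control), and were lysed 48 h after transfection. From each lysate an anti-Flag RNA immunoprecipitation (RIP) and an input, drawn before the incubation with beads, were sequenced, which gave 6 groups of 3 biological replicates and 18 libraries. SBP2 was overexpressed in both SBP2 treatments, and no group received selenite with the Flag plasmid, so the effect of selenite was measured only in cells with Flag-SBP2.

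RIP libraries held between 20001542 and 29887524 counts, and inputs between 15162472 and 22175748. Chi-square per degree of freedom between replicates, which is near 1 where counts differ only by sampling, was 4.81 to 27.3, and each library was counted as a replicate of its own. The labels do not say whether replicates were transfected on separate days, so p-values measure the spread between these lysates, which may be partly technical. The files do not pair Ensembl IDs with symbols, and other selenoproteins, SECISBP2 (the gene for SBP2) and markers of the cell line were therefore not analysed here by name.

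GPX3 lies on chromosome 5, at chr5:151020591-151028988 on the plus strand of GRCh38.p14 in the RefSeq annotation, a protein-coding gene that overlaps 0 other genes of that annotation. GPX2 lies on chromosome 14, at chr14:64939158-64942745 on the minus strand. GPX2 sits within the span of 1 other gene, the read-through locus CHURC1-FNTB on the plus strand. The strand setting of the authors' counting is not given in the sources used here, so the GPX2 counts may hold reads of that locus.

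GPX3 mRNA was recovered with Flag-SBP2, and its level in SBP2 RIP stood far above that in control RIP. Levels are given as CPM, counts per 1e+06 counts of the library, scaled by TMM factors, which correct for differences in RNA composition between libraries. In RIP with SBP2 and selenite GPX3 was measured at 491, 515 and 556 CPM. In SBP2 RIP without selenite it stood at 494, 508 and 546 CPM. In control RIP it was at 36.1, 32.2 and 37.5 CPM. All 6 SBP2 RIP libraries lay above all 3 control RIP libraries, while the SBP2 libraries with and without selenite overlapped.

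In the inputs the range of GPX3 was narrow. The values were 73.4, 70.7 and 75.9 CPM with SBP2 and selenite, 62.6, 60.9 and 58.9 CPM with SBP2, and 57.5, 65.4 and 62.3 CPM in the control. The 3 inputs with selenite were the highest of the 9, and the inputs of SBP2 and control overlapped.

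Ordered by level, the 6 groups ran as follows for GPX3. RIP with SBP2 and selenite averaged 520 ± 33.1 CPM and SBP2 RIP averaged 516 ± 26.6 CPM (SD, n = 3 each), and this pair did not differ beyond its spread. The inputs followed, with 73.3 ± 2.60 CPM for SBP2 with selenite, 61.7 ± 3.96 CPM for the control and 60.8 ± 1.85 CPM for SBP2 (SD, n = 3 each). The last 2 of these overlapped. Control RIP was lowest, at 35.3 ± 2.7 CPM (SD, n = 3), below every input. Of tested IDs, 39.7% lay lower in control RIP than in control inputs without overlap, and the share below all inputs was not counted. Replicates of GPX3 were close, with a coefficient of variation of 3.04% to 7.67% within groups. The biological coefficient of variation that edgeR fitted for GPX3 over 18 libraries was 0.071, against a median of 0.1 over all tested IDs.

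**Figure D1:**
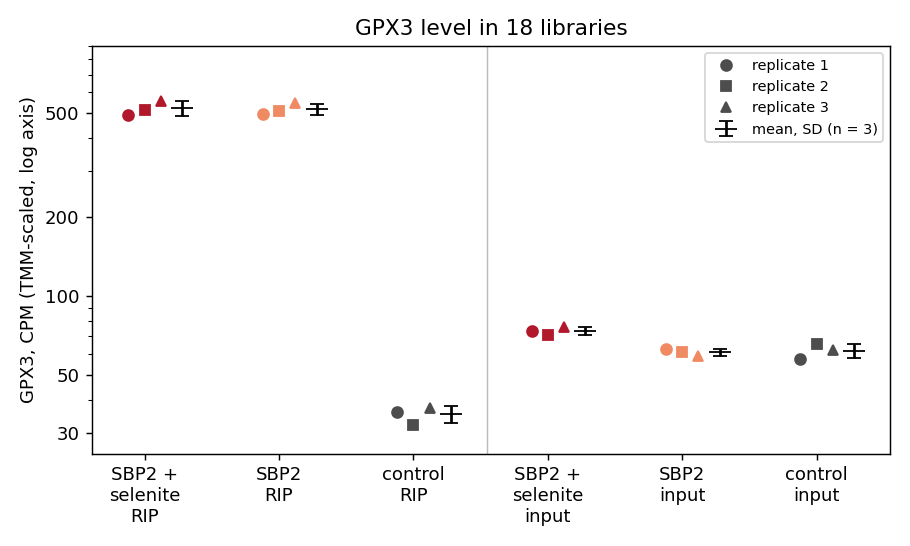
GPX3 level (CPM scaled by TMM factors, log axis) in the 18 libraries, RIP groups on the left and inputs on the right; each symbol is 1 library, and black bars give the mean and SD of 3. The 6 SBP2 RIP libraries sit between 491 and 556 CPM, the inputs between 57.5 and 75.9 CPM, and control RIP between 32.2 and 37.5 CPM.

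The first question was which RNAs each precipitation took up relative to its own lysate. GPX3 rose in both SBP2 precipitations and fell in the control precipitation. With SBP2 and selenite, the RIP-to-input ratio of single lysates was 6.69, 7.28 and 7.32-fold. With SBP2 alone it was 7.90, 8.33 and 9.26-fold. In control lysates it was 0.628, 0.493 and 0.601, so that the CPM of GPX3 was lower in the RIP than in the input of all 3. CPM gives a share of the library and not an amount of RNA.

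In edgeR's quasi-likelihood test over all 18 libraries, with Benjamini-Hochberg adjustment, the log2 change in RIP against input was 2.83 with SBP2 and selenite (SE 0.0837, 7.10-fold, adjusted p = 3.21e-18). Among the 17678 IDs tested, 30.7% were called higher in that comparison, and GPX3 had the 13th largest log2 change. With SBP2 alone the log2 change was 3.09 (SE 0.0849, 8.49-fold, adjusted p = 1.49e-18), where 30.3% of IDs were called higher and GPX3 ranked 9th. In the control, GPX3 fell by 0.81 on the log2 scale (SE 0.0819, 1.75-fold lower, adjusted p = 2.81e-09), a direction shared by 39.8% of IDs. Its place in the control was within the bulk of the IDs, since 28.1% of IDs had a lower log2 change.

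GPX3 did not overlap between RIP and input in any of the 3 treatments. A gap in the same direction was found for 32.4% of tested IDs with SBP2 and selenite, for 33.9% with SBP2 and for 39.7% in the control. The call alone is thus common in these data, and the rank of the log2 change carries what was less common about GPX3.

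The second question was what Flag-SBP2 added to the background of the Flag precipitation, as the RIP-to-input ratio with SBP2 over the same ratio in control lysates. GPX3 rose in this measure with and without selenite. Its log2 ratio in single lysates, with a prior count of 2, was 2.74, 2.86 and 2.87 with SBP2 and selenite. With SBP2 alone it was 2.98, 3.06 and 3.21, and in the control it was -0.67, -1.02 and -0.73. Every SBP2 lysate lay above every control lysate by more than 3 on the log2 scale. The share of all IDs with such a gap between lysates was not counted.

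The enrichment over control was 3.63 on the log2 scale with SBP2 and selenite (SE 0.116, 12.4-fold, 95% interval 10.5 to 14.7-fold, edgeR adjusted p = 8.66e-18). It was 3.89 with SBP2 alone (SE 0.117, 14.9-fold, 95% interval 12.6 to 17.6-fold, edgeR adjusted p = 2.21e-18). Both comparisons use the same 3 control lysates and are not independent of each other. Of the IDs tested, 19.3% were called enriched with selenite and 21.7% without, and the medians of all IDs were 0.026 and 0.022 on the log2 scale.

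GPX3 stood at the upper end of these distributions. It had the 28th largest log2 enrichment of 17678 IDs with selenite and the 27th largest without. Among the 13334 IDs whose mean log2 CPM reached 1, which sets aside rare RNAs, GPX3 ranked 20th with selenite and 19th without. In that set 48 IDs with selenite and 66 without had a log2 enrichment of 3 or more.

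**Figure D2:**
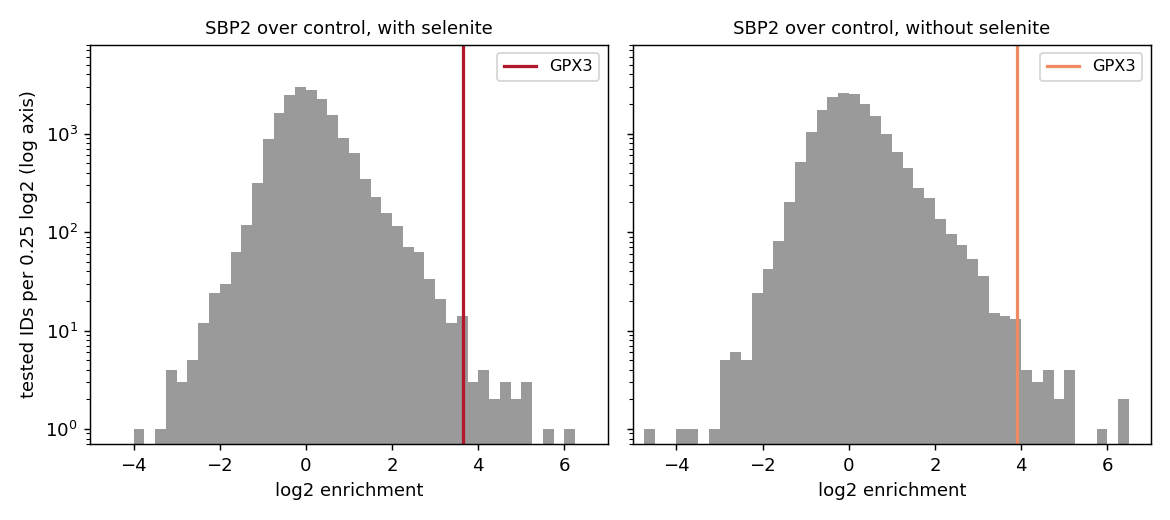
Number of tested IDs (log axis) by log2 enrichment over control in bins of 0.25, for SBP2 with selenite on the left and SBP2 without selenite on the right; the coloured line marks GPX3. GPX3 stands at 3.63 with selenite and 3.89 without, where the medians of all IDs are 0.026 and 0.022.

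RIP against RIP, with the inputs left out of the contrast but kept in the fit over 18 libraries, gave about the same size for GPX3. The log2 difference from control RIP was 3.88 with SBP2 and selenite (SE 0.0877, 14.7-fold, edgeR adjusted p = 2.42e-21) and 3.87 with SBP2 (SE 0.0877, 14.6-fold, edgeR adjusted p = 2.64e-21). In these comparisons 27.1% and 29.4% of IDs were called higher, and 30.8% and 33% had groups that did not overlap in that direction. GPX3 ranked 27th with selenite and 39th without.

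The third question was whether selenite changed the recovery of GPX3 with SBP2. The test did not pass. The RIP-to-input ratio was 7.10 ± 0.353-fold with selenite and 8.50 ± 0.697-fold without (SD, n = 3 each), and all 3 lysates with selenite lay below all 3 without, as was found for 7.77% of tested IDs. The difference was -0.26 on the log2 scale (SE 0.112, unadjusted 95% interval -0.49 to -0.027, edgeR adjusted p = 0.989, unadjusted p = 0.0298). Over all IDs edgeR called 0% in either direction, with 800 of 17678 at an unadjusted p under 0.05, and DESeq2 and limma voom also called 0. A log2 difference below that of GPX3 was found for 13.6% of IDs.

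Within this ratio the measured level differed more between the inputs than between the RIP libraries, and neither difference passed. Which of them the change in the ratio came from was not tested. Between the RIP libraries with and without selenite GPX3 differed by 0.012 on the log2 scale (SE 0.0771, 95% interval -0.15 to 0.17, edgeR adjusted p = 0.993), where 0.00566% of IDs, 1 in all, were called. In same-numbered pairs of RIP libraries the log2 difference was -0.011, 0.019 and 0.027.

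In the inputs, the measured level of GPX3 mRNA with SBP2 and selenite was 1.21-fold that of SBP2 inputs, which did not pass with or without pairing of replicates. It was 1.19-fold that of control inputs, which passed only with pairing. Inputs with SBP2 and selenite differ from control inputs in both the plasmid and selenite, which this comparison cannot tell apart. Against SBP2 inputs the log2 difference was 0.27 (SE 0.0905, 1.21-fold, 95% interval 1.05 to 1.38-fold, edgeR adjusted p = 1, unadjusted p = 0.00969). It was positive in all 3 same-numbered pairs, at 0.23, 0.22 and 0.37. Of the 16616 IDs tested over inputs, 0.00602% were called in either direction, and 94.1% had a lower log2 difference than GPX3. With the replicate number as a block the log2 difference was 0.27 (SE 0.0711) and the edgeR adjusted p was 0.101.

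Against control inputs the log2 difference with SBP2 and selenite was 0.25 (SE 0.0905, 1.19-fold, 95% interval 1.04 to 1.36-fold, edgeR adjusted p = 0.3), and it was 0.35, 0.11 and 0.28 in same-numbered pairs. With the replicate number as a block the difference was again 0.25 (SE 0.0711) and passed, at an edgeR adjusted p of 0.0317. Same-numbered inputs of these groups deviated together, so the block belongs to this comparison. With the block 2.26% of IDs were called higher and 4.54% lower. Without it 0.307% were called higher and 0.247% lower, or 0.554% in either direction, so the block raised calls across all IDs. The inputs with selenite did not overlap those of the control or of SBP2, a pattern found upward for 6.3% and 3.54% of IDs.

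Flag-SBP2 alone left no detectable difference in the GPX3 level of the lysate. SBP2 inputs against control inputs gave a log2 difference of -0.017 (SE 0.0908, 95% interval -0.21 to 0.18, edgeR adjusted p = 0.941), where 0.879% of IDs were called in either direction. Same-numbered pairs gave 0.12, -0.10 and -0.08, without a common sign.

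**Figure D3:**
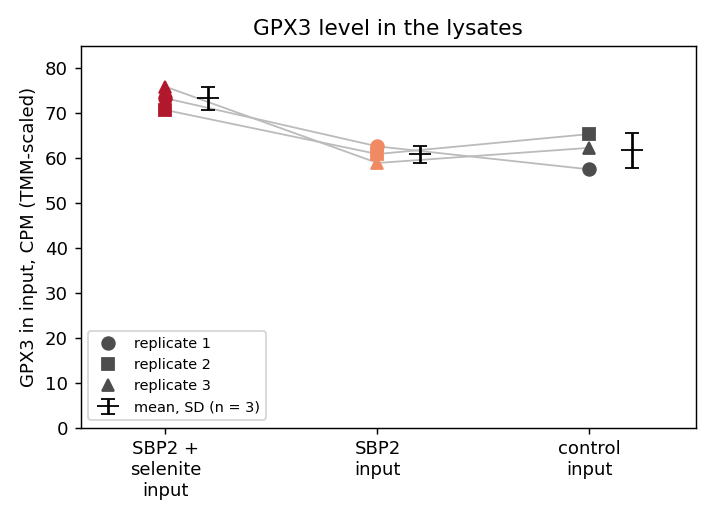
GPX3 level in the 9 inputs (CPM scaled by TMM factors, axis from 0); symbols and grey lines mark the replicate number, and black bars give the mean and SD of 3. The inputs of SBP2 with selenite lie between 70.7 and 75.9 CPM, above those of SBP2 (58.9 to 62.6 CPM) and control (57.5 to 65.4 CPM).

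GPX2 was hardly detected in these cells, and no recovery with SBP2 could be measured for it. The counts were 7, 3 and 3 in RIP with SBP2 and selenite, 4, 3 and 0 in SBP2 RIP, and 2, 4 and 4 in control RIP. In the inputs they were 3, 5 and 1 with SBP2 and selenite, 1, 1 and 1 with SBP2, and 1, 2 and 1 in the control. Scaled as CPM, the groups overlapped in every pairing except RIP with SBP2 and selenite, at 0.111 to 0.294 CPM, against SBP2 inputs, at 0.0461 to 0.0678 CPM. That gap sets 7, 3 and 3 counts against 1, 1 and 1 in inputs of another treatment. Its share over all IDs was not counted, and it is not read as recovery.

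Summed over 3 libraries, GPX2 reached 13 counts in RIP with SBP2 and selenite, or 0.187 per 1e+06 library counts (95% Poisson interval 0.0996 to 0.32). SBP2 RIP held 7 counts, or 0.0872 per 1e+06 (0.0351 to 0.18), and control RIP held 10 counts, or 0.121 per 1e+06 (0.0582 to 0.223). The inputs held 9, 3 and 4 counts for SBP2 with selenite, SBP2 and control. The SBP2 RIP library with 0 counts allows a level of up to 0.106 per 1e+06 by a limit of 3 counts of its total, and its two-sided 95% Poisson interval ends at 0.13 per 1e+06. These intervals and this floor cover counting error only.

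**Figure D4:**
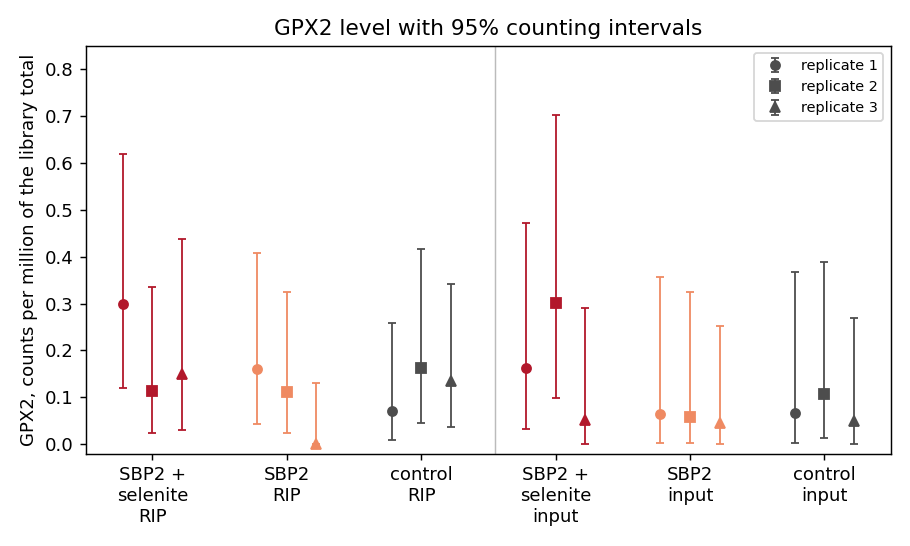
GPX2 counts per 1e+06 of the library total in the 18 libraries; each symbol is 1 library, and bars are 95% Poisson intervals of its count. Every library has 7 or fewer counts, and the intervals of the 6 groups overlap.

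The ratio of GPX2 between RIP groups was bounded by these counts. SBP2 RIP with selenite over control RIP was 1.54-fold, with a 95% counting interval of 0.624 to 3.92. Without selenite the ratio was 0.718, with an interval of 0.232 to 2.09. GPX3 in the same comparisons was at 14.7-fold and 14.6-fold, with 95% intervals of 13.0 to 16.7 and 12.9 to 16.6. These come from the edgeR fit with TMM factors and include the spread between replicates. The GPX2 intervals use library totals and cover counting error only. In RIP against RIP the counting intervals of GPX2 thus ended below those of GPX3. The enrichment of GPX2 over control was far less well bounded. Without a low-count filter edgeR put it at -0.56 on the log2 scale (SE 1.29) with selenite and -0.052 (SE 2.05) without. The bound from RIP against RIP therefore does not carry over to the enrichment over control.

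RIP over input of the same treatment was less well bounded for GPX2. It was 1.13-fold with SBP2 and selenite (counting interval 0.446 to 2.99), 1.60-fold with SBP2 (0.364 to 9.56) and 1.65-fold in the control (0.477 to 7.22). Inputs with selenite over SBP2 inputs gave 3.03-fold for GPX2 from 9 and 3 counts (0.757 to 17.4). Inputs with selenite over control inputs gave 2.26-fold from 9 and 4 counts (0.63 to 10.0). Each of these intervals includes 1, and a change of the size seen for GPX3 in the inputs was not detectable for GPX2 at this depth. Without a low-count filter edgeR called GPX2 in 0 of 12 comparisons, with adjusted p from 0.683 to 1 and a smallest unadjusted p of 0.206.

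Enrichment over control was compared between the genes on single lysates, as the log2 RIP-to-input ratio of GPX3 minus that of GPX2. This difference was 2.16, 3.81 and 2.14 with SBP2 and selenite. With SBP2 alone it was 2.31, 2.62 and 3.81, and in the control it was -0.63, -1.27 and -1.32. The 6 SBP2 lysates averaged 3.89 more than the 3 control lysates (two-sided exact permutation p = 0.0119, the smallest this design allows), and all 6 lay above all 3. Taken apart, 3 lysates against 3 gave 3.78 with selenite and 3.99 without (two-sided exact permutation p = 0.1 for both, the smallest possible). The ratio of GPX3 alone already set SBP2 lysates apart from control lysates, and GPX2 ratios from so few counts could not undo that order. These p-values therefore follow from the enrichment of GPX3 and are no test of GPX2.

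The GPX2 side of that difference rests on few counts and on the prior count of 2, which pulls its ratios toward 0. The log2 ratio of GPX2 was 0.12 ± 0.93 with SBP2 and selenite, 0.17 ± 0.67 with SBP2 and 0.27 ± 0.31 in the control (SD, n = 3 each). With GPX3 the same quantity was 2.82 ± 0.073, 3.08 ± 0.12 and -0.81 ± 0.19 (SD, n = 3 each). With a prior count of 0.5 the difference between SBP2 and control lysates was 4.06, and with 5 it was 3.82.

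**Figure D5:**
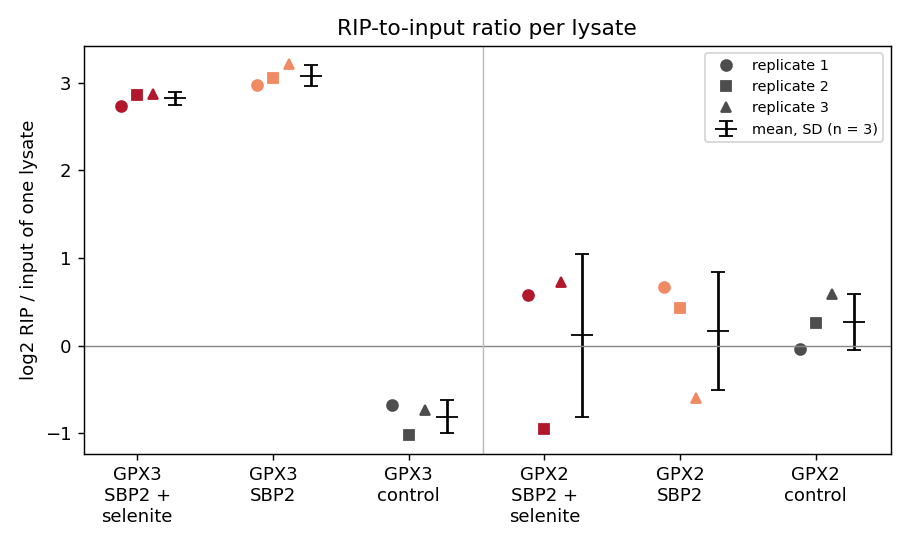
Log2 RIP-to-input ratio of single lysates (CPM scaled by TMM factors, prior count of 2) for GPX3 on the left and GPX2 on the right; each symbol is 1 lysate, and black bars give the mean and SD of 3. GPX3 lies near 3 in SBP2 lysates and below 0 in control lysates, while the GPX2 values of the 3 treatments overlap around 0.

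The IDs whose pattern was most like that of GPX3 were ENSG00000144659 and ENSG00000100997, with Pearson correlations of log2 CPM of 0.994 and 0.993 over 18 libraries. Their enrichments over control were 2.82 and 2.36 on the log2 scale with selenite, and 3.09 and 2.69 without. The libraries of a group share their treatment and the split between RIP and input, and 578 of 17677 IDs correlated with GPX3 above 0.9. For GPX2 the highest correlations were 0.688, with ENSG00000104112, and 0.579, with ENSG00000115267, and in counts this sparse they are not read as a pattern.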

How the data were processed

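RIP and input libraries of 3 treatments were grouped by their titles. The authors deposited raw counts per Ensembl ID. Trim Galore 0.6.6, STAR 2.7.6a, featureCounts 2.0.1 and GRCh38 (hg38) are named in the submitters' processing notes; for the gene annotation, the strand setting and multiply matching reads, settings were not given in the sources used here. Of 59792 RefSeq genes in the reference table, 0 carried an Ensembl ID, so GPX3 and GPX2 are the only genes named, by the IDs of the selection, and RefSeq coordinates were matched by symbol. No SECIS or protein sequence was used here.

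Counts were filtered with filterByExpr (minimum count 10, minimum total 15), which kept 17678 IDs over 18 libraries and 16616 over 9 inputs, scaled by TMM and tested with edgeR 4.0.16 in R 4.3.3 (two-sided quasi-likelihood test, threshold 0.05). RIP comparisons used 18 libraries and input comparisons 9. Alternatives used DESeq2 1.42.0 and limma 3.58.1. Intervals are 95%; counting intervals are exact and conditional. Log2 ratios of lysates used a prior count of 2. PCR duplicates are not separate molecules.

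Both genes were named in every library, with the 2 most correlated IDs for each. The genes, lists and tests were chosen with earlier results of these data known.

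An input and its RIP were taken as 1 lysate, since the labels' protocol draws the input from the sample; their correlations of deviations from group means were 0.0012 to 0.19. Same-numbered inputs with selenite correlated with control inputs at 0.13 to 0.31 and with SBP2 inputs at 0.11 to 0.19, every pair above 0.1, so numbers were taken to pair them. Same-numbered SBP2 and control inputs (0.085 to 0.22) and RIP libraries (0.044 to 0.14) did not all pass that limit.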

Additional observations from a re-analysis of the deposited data

How the results depend on the processing

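For GPX3 the calls of RIP against input, enrichment over control and RIP against control RIP kept their direction and their side of the threshold under every alternative run: 3 other scalings, 2 other filters, DESeq2, limma voom, the replicate block and each library left out. The enrichment ran from 3.47 to 3.63 with selenite and from 3.75 to 3.90 without, and from 3.56 to 3.68 and from 3.82 to 3.94 with single libraries left out. The selenite effect on enrichment ran from -0.29 to -0.24, and from -0.31 to -0.22 with libraries left out, at adjusted p of 0.675 or more. Differences close to 0 changed sign without passing. RIP with against without selenite was -0.0061 with DESeq2 size factors, -0.0068 with upper-quartile factors, -0.0027 without a low-count filter and -0.0062 with DESeq2, and -0.042 to 0.053 with libraries left out. SBP2 against control inputs was 0.0090 with upper-quartile factors and 0.0048 with a minimum count of 50, and -0.058 to 0.026 with libraries left out. The replicate block raised 1 call, inputs with selenite against control inputs, at 0.25 (adjusted p = 0.0317, against 0.3 without it and 0.126 to 0.571 under the other settings), and changed no other call of GPX3. The difference between the genes stayed between 3.69 and 4.11 with lysates left out and was 3.82 with library size alone.

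The shares of all IDs called moved more. With library size alone 17% were enriched and 24.7% depleted without selenite, against 21.7% and 18.1%, and 15.1% and 20.3% with selenite, against 19.3% and 14.4%; the median of all IDs was then -0.13 and -0.10, and GPX3 stood at 3.75 and 3.50. Calls over inputs ran from 21 to 2734 for SBP2 against control (146 in the test reported), from 23 to 1130 with selenite against control (92) and from 1 to 37 with against without selenite (1). RIP with against without selenite ran from 1 to 267 (1). The cause was not tested. With library size alone, an alternative chosen after seeing the data, GPX2 was again called in 0 of 12 comparisons. Depth limits GPX2, with at most 7 counts in a library.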
